A study of Zea mays with 18 samples.

Results

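The genes described here encode the calcium sensors and calcium-regulated protein kinases of maize roots. They are the annotated genes whose description names a calcium-binding protein, a calmodulin-like protein, a calcineurin B-like protein, a CBL-interacting kinase or a calcium-dependent protein kinase, with 3 further identifiers set by the rule, of which 2 also match by text. The set holds 201 genes among 55661 features in the table. It comprises 58 calmodulin-like and other calcium-binding proteins (CML), 1 calmodulin (Zm00001eb150260), 13 calcineurin B-like proteins (CBL), 65 CBL-interacting protein kinases (CIPK) and 64 calcium-dependent protein kinases (CPK). A further 39 features, assembled by the authors or listed as single transcripts, match the same words and were not counted because of their identifiers. Members are called below by their identifier and by the rice, Arabidopsis, wheat or maize protein that the file gives as the match, so a shared name does not make 2 genes copies of one another. The domains listed in the file fit most of these names: an EF-hand is listed for 40 CMLs, 5 CBLs and 44 CPKs, the NAF motif for 41 CIPKs and a kinase domain for 54 CIPKs and 45 CPKs, while no domain at all is listed for 17 CMLs and for 8 genes in each of the CBL, CIPK and CPK classes.

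Roots of WT maize (inbred line B73) and of *zmccd8*, 1 Ds insertion line in the B73 background, were compared after 4 weeks in vermiculite. In the control (CT) the plants were fed full Hoagland solution. For nitrogen deficiency (0N) the potassium of that solution came as chloride in place of nitrate. For water stress (WS) the plants were watered once, with the full solution when they were moved to the pots. Each of the 6 groups had 3 libraries, each from roots pooled over several plants. *ZmCCD8* encodes the carotenoid cleavage dioxygenase that acts in strigolactone synthesis, and its Ds element lies in the third exon.

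Calcium enters the cytosol in short pulses when a plant cell meets a nutrient, water or salt signal, and the proteins of this set read those pulses. Calmodulin and CMLs bind calcium through EF-hands and pass the signal on by binding other proteins. CBLs also bind calcium but work through CIPKs, kinases with a NAF motif that docks the CBL, and in Arabidopsis CBL-CIPK pairs regulate potassium, sodium and nitrate transport in roots. CPKs carry the sensor and the kinase in 1 protein, and they need no partner to respond to calcium.

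Values are FPKM, fragments scaled to gene length in kilobases and to a size set for each library, so levels of different genes can be set side by side per length. Reads rebuilt from FPKM summed to between 30104083 and 43429912 per library. The size behind the values was 0.967 to 1.046 times that sum, so it was not the plain sum of reads. *ZmCCD8*, measured over the whole gene, was at 4.17 to 8.76 FPKM in WT under CT, 47.8 to 70.9 under 0N and 8.85 to 10.7 under WS, against 5.63 to 16.6, 9.47 to 19.3 and 18.1 to 27.4 in *zmccd8*. Transcript on both sides of the insertion is counted in that value, so it does not check the genotype labels. A member was called where limma on log2(FPKM + 1) gave a Benjamini-Hochberg adjusted p of 0.05 or less over all 27530 genes that passed a filter of 1 FPKM in 3 of 18 libraries, with an absolute log2 difference of 1 or more. Log2 differences are on that scale with their standard errors, and they understate changes of genes near 0. In whole-root RNA, fewer cells of a type and less RNA per cell cannot be told apart.

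Of the 201 members, 134 passed the filter and 67 did not, and the highest mean among the latter was 0.458 FPKM. In all 18 libraries 25 members were at 0. The CIPKs were the most unequal class: 37 of 65 passed, 13 were at 0 throughout, and 1 of them, Zm00001eb016180 (rice CIPK10, chromosome 1, 56683403 to 56686703, plus strand), had the highest mean of the whole set at 241 FPKM. Of the CMLs 45 of 58 passed, of the CBLs 11 of 13 and of the CPKs 40 of 64. The highest means in those classes were 68.3 FPKM for Zm00001eb226020 (rice CML29, chromosome 5), 29.5 for Zm00001eb390900 (rice CBL1, chromosome 9) and 57.8 for Zm00001eb322620 (maize CPK2, chromosome 7), and the calmodulin averaged 73.9. Mean levels of 10 FPKM or more were reached by 80 members.

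None of those 3 class leaders was called in any comparison. Zm00001eb390900 stayed between 24.2 and 35.7 FPKM over all 18 libraries, the CPK Zm00001eb322620 between 41.3 and 81.7, and the CML Zm00001eb226020 between 34.5 and 122. Under WS the CPK nevertheless lay at 69.4 to 76.3 FPKM in WT against 45.5 to 58.1 under CT, without overlap (log2 difference 0.49 ± 0.13, adjusted p = 0.023), which is below the fold threshold. In all, 56 of the 134 filtered members were called in at least 1 comparison and 78 in none.

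**Figure D1:**
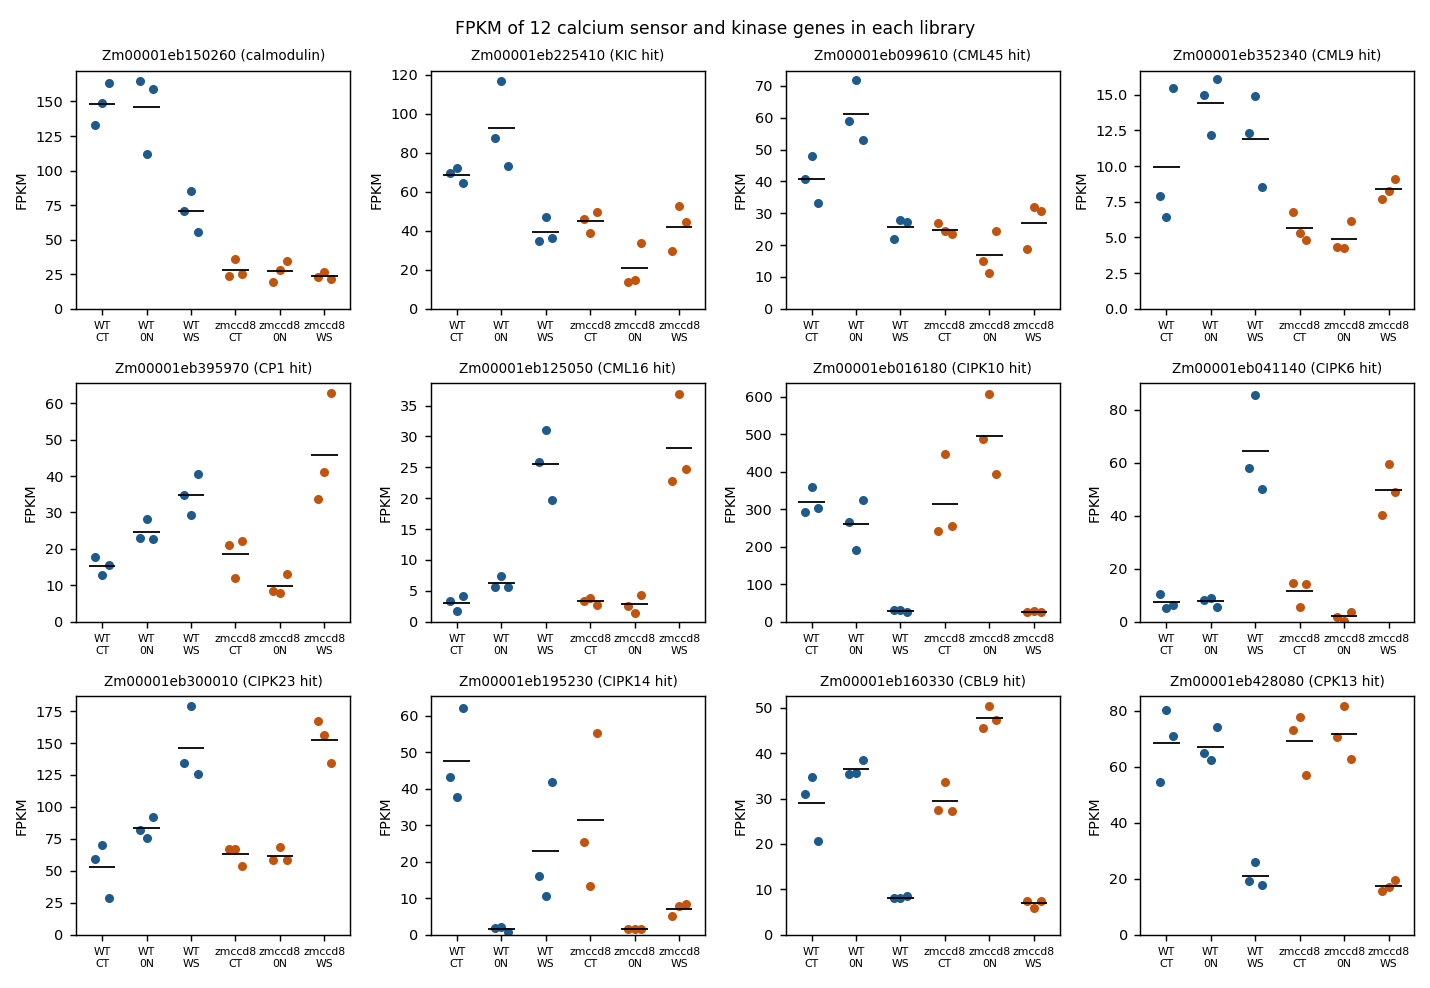
FPKM (y axis, linear, own scale per panel) of 12 members in each of the 18 libraries, by group on the x axis. Points are libraries, blue for WT and orange for *zmccd8*, and black lines are group means. The calmodulin Zm00001eb150260 sits between 19.2 and 35.9 FPKM in all 9 *zmccd8* libraries and at 55.7 or more in all 9 WT libraries.

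Differences between the genotypes addressed how the strigolactone mutant departs from WT in each condition. The calmodulin Zm00001eb150260 (wheat calmodulin, chromosome 3, 192261109 to 192264979, minus strand) was lower in *zmccd8* in all 3 conditions. Under CT it was at 133, 149 and 163 FPKM in WT and at 23.5, 35.9 and 25.0 in *zmccd8*. The groups do not overlap, and the mean was 5.28-fold lower (log2 difference −2.38 ± 0.18, adjusted p = 0.00177). Under 0N the values were 165, 112 and 159 FPKM in WT against 19.2, 27.8 and 34.3 (−2.40 ± 0.24, adjusted p = 0.00554). Again every WT library was above every mutant library.

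Under WS the calmodulin was at 70.6, 85.2 and 55.7 FPKM in WT and at 22.7, 26.4 and 21.8 in *zmccd8* (−1.52 ± 0.16, adjusted p = 0.00755). The smaller gap under WS came with a lower level in WT: relative to CT the WT fell by 1.08 on the log2 scale (SE 0.18, adjusted p = 0.00505), while in *zmccd8* the difference was −0.22. The interaction of genotype and WS was 0.86 ± 0.26 and was not called (adjusted p = 0.433). Without WT WS library 3 the fall in WT was 0.92 on the log2 scale and below the fold threshold. The WS genotype call was lost without *zmccd8* WS library 1 (adjusted p = 0.0513) or WT WS library 1 (0.0502), while those under CT and 0N held in every fit that left out 1 library.

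The calmodulin was the only member called under CT (0 higher, 1 lower) and under WS (0 higher, 1 lower). It is in the set by its identifier and not by text. No member that matched by text was called between genotypes under CT or WS, so these counts reflect the choice of that gene. Among all filtered genes 0.436% were called higher and 0.4% lower under CT, and 0.487% and 0.414% under WS. The other 8 genes annotated as calmodulin, which are not members because their descriptions do not carry the words of the rule, were not called between genotypes in any condition. Under CT their log2 differences between genotypes ran from −0.13 to 0.14. They lay at means of 52.7 to 224 FPKM in WT under CT.

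Under 0N, 6 members were called lower in *zmccd8* and 0 higher, against 0.89% of all filtered genes lower and 0.683% higher. Apart from the calmodulin they were all CMLs, of which Zm00001eb352340 and Zm00001eb395970 match by text and are also set by identifier in the rule. Zm00001eb225410 (Arabidopsis KIC, which in that species binds a calmodulin-binding kinesin) was at 87.5, 117 and 73.2 FPKM in WT and at 14.0, 14.7 and 33.7 in *zmccd8* (−2.19 ± 0.35, adjusted p = 0.0345). Zm00001eb099610 (Arabidopsis CML45) was at 59.0, 71.8 and 53.1 against 14.9, 11.4 and 24.5 (−1.85 ± 0.27, adjusted p = 0.0248). In both genes the third mutant library lay closest to WT, without reaching it, as the naming rule requires.

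Zm00001eb352340 (rice CML9, chromosome 8) was at 15, 12.2 and 16.1 FPKM in WT and at 4.30, 4.24 and 6.17 in *zmccd8* (−1.39 ± 0.18, adjusted p = 0.018). Zm00001eb395970 (Arabidopsis CP1, chromosome 9) was at 23.0, 28.2 and 22.8 against 8.50, 8.01 and 13.1 (−1.26 ± 0.20, adjusted p = 0.0336). The sixth, Zm00001eb140600 (rice CML31, chromosome 3), was named by the rule for WS and was at 28.4, 37.5 and 24.9 FPKM in WT under 0N against 5.41, 9.49 and 11.4 (−1.71 ± 0.27, adjusted p = 0.0353). WT and mutant libraries did not overlap in any of these 3 genes.

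Each of these 5 CML calls was kept in 1 of the 6 fits that left out 1 library. That was the fit without *zmccd8* 0N library 3, in which 11 members were called, all lower in *zmccd8*. Over all 27530 filtered genes that fit called 349 higher and 635 lower, against 188 and 245 with all libraries, so calls rose in general. Without any 1 of the other 5 libraries only the calmodulin was called, and the adjusted p of the 5 CMLs ranged from 0.0503 to 0.151. A list of 57 genes was picked for root by the words Casparian strip membrane protein or high-affinity nitrate transporter 2 in the annotation. Only 7 are Casparian strip membrane proteins themselves, many are CASP-like proteins, and a few are matched to other proteins. The summed level of the list under 0N was 696 to 753 FPKM in WT and 507 to 618 in *zmccd8*, ranges that do not overlap. The 7 Casparian strip membrane proteins alone summed to 72.8 to 102 in WT and 35.5 to 87.8 in *zmccd8*, ranges that overlap. None of the 39 filtered genes of the list was called between genotypes by limma. The part of the list in these differences was not tested. With genes of chromosome 3 left out before adjustment, 2 were called, Zm00001eb099610 and Zm00001eb352340.

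The same 5 CML genes were not called between genotypes under CT or WS. Under CT the log2 differences were −0.61 for Zm00001eb225410, −0.68 for Zm00001eb099610, −0.79 for Zm00001eb140600, −0.64 for Zm00001eb352340 and 0.21 for Zm00001eb395970. Under WS they lay between −0.43 and 0.35. Relative to CT under 0N, the interaction was −1.58 ± 0.40 for Zm00001eb225410, −1.47 ± 0.34 for Zm00001eb395970 and −1.18 ± 0.33 for Zm00001eb099610, with adjusted p of 0.167, 0.162 and 0.174, so that a genotype difference in the response to 0N was not called for them. It was not called for Zm00001eb140600 or Zm00001eb352340 either. Their differences under 0N, −1.71 and −1.39, stood beside −0.79 and −0.64 under CT, where neither was called. The CT estimates of Zm00001eb225410 and Zm00001eb099610 were of similar size.

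Over the 45 filtered CMLs the median log2 difference under 0N was −0.56, with 32 below 0, against −0.01 over all filtered genes. The median was −0.10 for these CMLs under CT and 0.04 under WS. The medians under 0N were 0.06 for 11 CBLs, −0.18 for 37 CIPKs and 0.03 for 40 CPKs. No CBL, CIPK or CPK was called between genotypes in any condition.

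**Figure D2:**
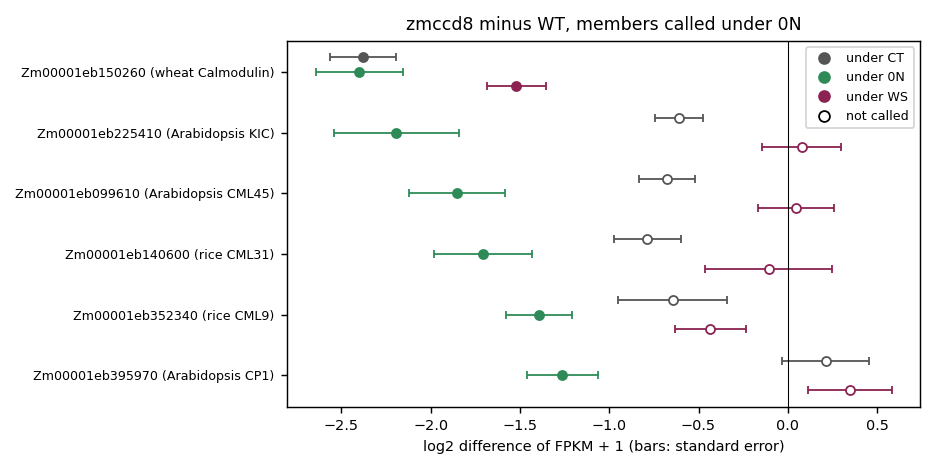
Log2 difference between *zmccd8* and WT (x axis, log2 of FPKM + 1) for the 6 members called under 0N, under CT (grey), 0N (green) and WS (purple). Points are limma estimates with standard errors, filled where called. The calmodulin is filled in all 3 conditions, from −2.40 to −1.52, and the 5 CMLs only under 0N.

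*ZmCCD8* lies on chromosome 3, as does the calmodulin, whose start is 9.92 Mb before it. Over all genes, leaving out chromosome 3 before adjustment brought the tested genes from 27530 to 24555. The genotype calls under CT went from 230 (120 higher, 110 lower) to 76 (64 higher, 12 lower). Under 0N they went from 433 to 160, and under WS from 248 to 96. Of the 29 members on chromosome 3, 22 passed the filter. Under CT 11 of them were below 0 and 11 above, and under WS 10 and 12. Under 0N 15 of the 22 were below 0, as were 64 of the 112 members on the other chromosomes or scaffolds. Zm00001eb152500, a CIPK gene 1.57 Mb before *ZmCCD8* and chosen here for its place, had log2 differences of −0.22, −0.35 and −0.51 under CT, 0N and WS, none of them called. The 2 adjacent CML31 genes Zm00001eb140600 and Zm00001eb140610 lie 52.49 Mb before *ZmCCD8*, and both were below 0 in all 3 conditions. Zm00001eb141120 (rice CML15), 50.57 Mb before *ZmCCD8* and named after its values were seen, was at 12.5, 7.24 and 8.67 FPKM in WT under CT and at 4.40, 2.76 and 4.07 in *zmccd8*. The genotypes did not overlap under CT, 0N or WS, but the log2 differences of −1.13, −1.61 and −1.05 missed the adjusted threshold (adjusted p = 0.136, 0.0849 and 0.0555). An allele linked to the insertion and an effect of the lost enzyme cannot be told apart for genes of this chromosome.

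**Figure D3:**
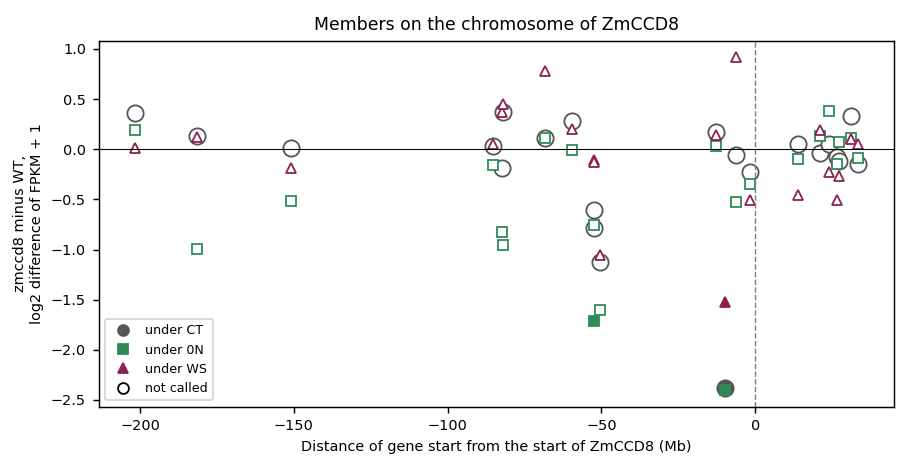
Log2 difference between *zmccd8* and WT (y axis, log2 of FPKM + 1) for the 22 filtered members on chromosome 3, by the distance of their start from the start of *ZmCCD8* in Mb (x axis, dashed line at 0). Circles are CT, squares 0N and triangles WS, filled where called. The calmodulin at −9.92 Mb is filled in all 3 conditions, with the values under CT and 0N on top of each other.

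Comparisons of 0N with CT within each genotype addressed the response to nitrogen deficiency. In WT 3 members were called higher and 3 lower, together 4.48%, against 1.94% and 2.82% of all filtered genes, together 4.76%. In *zmccd8* 1 was called higher and 9 lower, together 7.46%, against 1.74% and 5.63%, together 7.37%. The member shares are thus near those of all filtered genes. The 2 members called in both genotypes were CIPKs, and both fell.

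Zm00001eb195230 (rice CIPK14, chromosome 4, 189373554 to 189376183, minus strand) was at 43.2, 37.6 and 62.2 FPKM in WT under CT and at 1.83, 2.12 and 0.643 under 0N. The mean was 31.2-fold lower (log2 difference −4.29 ± 0.30, adjusted p = 0.00411). In *zmccd8* it was at 25.5, 13.4 and 55.3 under CT and at 1.61, 1.42 and 1.59 under 0N, 20.3-fold lower (−3.45 ± 0.46, adjusted p = 0.0166). Without CT library 3, the highest, the mean was 12.6-fold lower. Its 6 libraries under 0N lay at 2.12 FPKM or less, and the 6 under CT at 13.4 or more.

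Zm00001eb163480 (rice CIPK32, chromosome 3, 235702115 to 235714209, minus strand) was at 11.7, 18.8 and 20.5 FPKM in WT under CT and at 3.64, 3.24 and 2.04 under 0N (−2.16 ± 0.26, adjusted p = 0.011). In *zmccd8* the values were 15.3, 13.9 and 15.2 against 3.44, 1.66 and 3.24 (−2.10 ± 0.23, adjusted p = 0.0113). Both WT calls held in every fit that left out 1 library. In *zmccd8* the call of Zm00001eb195230 was lost without 0N library 1 (adjusted p = 0.0599) or CT library 1 (0.0707), and that of Zm00001eb163480 without CT library 1 (0.056) or CT library 3 (0.0543).

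The other WT calls under 0N were near the fold threshold. Zm00001eb347180 (rice CML15) rose from 5.19, 4.11 and 3.95 FPKM to 9.23, 15.5 and 12.6 (1.29 ± 0.21, adjusted p = 0.0217), Zm00001eb217170 (rice CPK9) rose by 1.05 and Zm00001eb330600 (rice CIPK2) by 1.02 on the log2 scale. Zm00001eb058770 (Arabidopsis CML41, which in that species acts at plasmodesmata) fell by 1.00 from a mean of 1.72 FPKM. Each of these 4 calls was kept in 1 or 2 of the 6 fits that left out 1 library. The count of calls in WT was 2 without 0N library 2, 0N library 3 or CT library 3, and 3 without 0N library 1.

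In *zmccd8* Zm00001eb041140 (rice CIPK6) was at 14.5, 5.41 and 14.4 FPKM under CT and at 1.71, 0.414 and 3.81 under 0N (−2.13 ± 0.53, adjusted p = 0.0429). In WT the same gene was at 5.16 to 10.5 under CT and 5.49 to 9.13 under 0N, ranges that overlap (0.09 ± 0.29). Its interaction was −2.22 ± 0.65 with an adjusted p of 0.18, and so was not called. Zm00001eb135650 (rice CML5) fell by 1.79, and Zm00001eb386410 (rice CIPK24, the kinase known in rice as SOS2 of the salt pathway) rose by 1.41, from a mean of 3.5 FPKM to 11.2.

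The 5 further members that fell in *zmccd8* were Zm00001eb015800 (rice CML27), Zm00001eb408020 (rice CPK28), Zm00001eb208480 (Arabidopsis KIC), Zm00001eb213280 (rice CPK10) and Zm00001eb140600, with log2 differences of −1.62, −1.61, −1.48, −1.22 and −1.01. All but Zm00001eb140600, which the rule names for WS, fall outside the naming rule and were chosen after their values were seen. All of these 8 calls were lost in 4 or 5 of the 6 fits that left out 1 library. Without *zmccd8* CT library 1 no member was called, without 0N library 1 or CT library 3 only 1 was, and without 0N library 2 only 2 were. Over all filtered genes the calls in these fits fell from 2029 to 173, 189, 119 and 505, in that order.

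**Figure D4:**
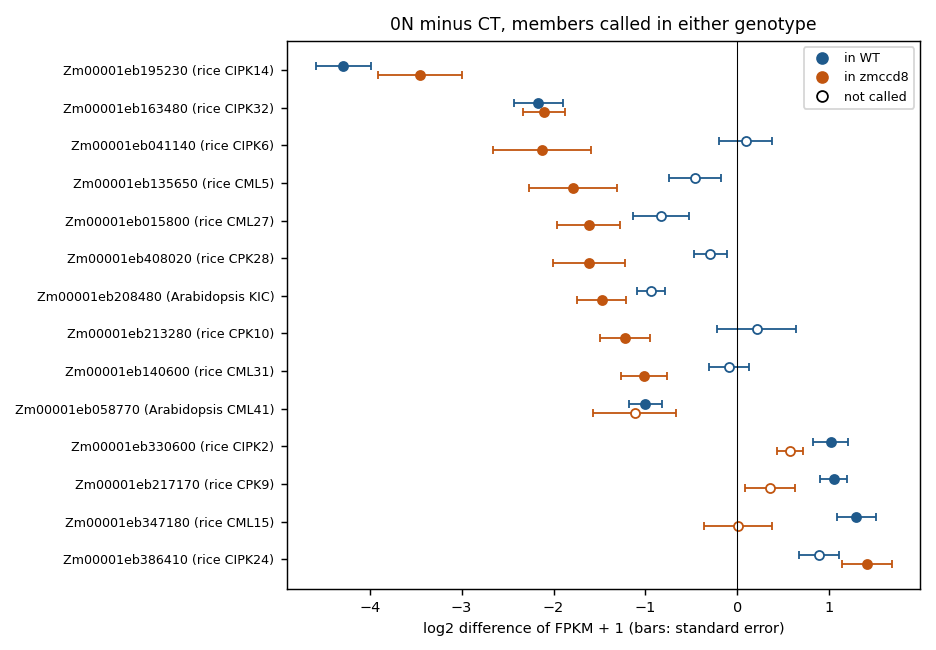
Log2 difference between 0N and CT (x axis, log2 of FPKM + 1) for the 14 members called in WT (blue) or *zmccd8* (orange). Points are limma estimates with standard errors, filled where called. Only the CIPK14 and CIPK32 genes are filled in both genotypes.

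WS changed more members than any other condition. In WT 18 were called higher and 22 lower, together 29.85% of the 134, and in *zmccd8* 20 higher and 21 lower, together 30.6%. Of all filtered genes, 7.41% were called higher and 10.4% lower in WT, and 6.24% and 10.3% in *zmccd8*. The 2 comparisons share no library. They had 31 members in common, 15 higher and 16 lower in both, which is 77.5% of the WT calls and 75.6% of the *zmccd8* calls. All 50 members called in either genotype had the same sign in both. Across the 134 members, which are not independent replicates, the log2 differences of the 2 genotypes had a Pearson r of 0.922, beside 0.916 across all filtered genes. By that measure the agreement was not particular to the members. Shared calls and signs were not counted over all filtered genes.

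Among the sensors, 15 of 45 filtered CMLs were called in WT (6 higher, 9 lower) and 18 in *zmccd8* (9 higher, 9 lower). Zm00001eb125050 (rice CML16, chromosome 3) rose from 3.33, 1.65 and 4.19 FPKM in WT under CT to 25.9, 31.0 and 19.7 under WS (2.74 ± 0.29, adjusted p = 0.000893). In *zmccd8* it rose from 3.35, 3.84 and 2.73 to 22.8, 36.8 and 24.7 (2.73 ± 0.20, adjusted p = 0.00017). The means were 8.35-fold and 8.50-fold higher, and no WS library overlapped with CT, which the naming rule requires.

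Zm00001eb395970 (Arabidopsis CP1), lower in *zmccd8* under 0N, rose under WS in both genotypes. The rise in WT was 1.13 ± 0.17 (adjusted p = 0.00354), and *zmccd8* had 1.26 ± 0.29 (adjusted p = 0.0148). Zm00001eb347180 (rice CML15) rose by 1.87 ± 0.29 in the mutant (adjusted p = 0.00295), and WT had 1.03 ± 0.27 (adjusted p = 0.0251). Its WT call was lost without WT WS library 2 or 3 or WT CT library 2 or 3, with adjusted p of 0.0353 to 0.0714 and a log2 difference down to 0.75.

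Among CMLs that fell, Zm00001eb089080 (Arabidopsis CML22, chromosome 2) went from 55.3, 52.1 and 73.1 FPKM to 6.55, 15.7 and 8.21 in WT (−2.52 ± 0.30, adjusted p = 0.00151). In *zmccd8* it went from 43.0, 82.9 and 37.2 to 9.86, 13.5 and 10.1 (−2.11 ± 0.29, adjusted p = 0.00199). Zm00001eb362720 (rice CML19, chromosome 8) fell from 9.46 to 11.5 FPKM to 0.446 to 1.27 in WT (−2.65 ± 0.21, adjusted p = 0.000317), and in the mutant the log2 difference was −1.70 ± 0.31 (adjusted p = 0.00581). Zm00001eb140600 (rice CML31) fell from 24.1 to 38.1 FPKM to 4.38 to 8.88 in WT (−2.13 ± 0.27, adjusted p = 0.0018), with −1.45 in the mutant. Ranges of CT and WS were apart in all of them, which the naming rule requires in the comparison that named each.

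Among CBLs, 5 of 11 were called in WT (2 higher, 3 lower) and 2 in *zmccd8* (both lower). Zm00001eb160330 (rice CBL9, chromosome 3, 226083929 to 226087845, plus strand) fell most in both. It was at 31.0, 34.8 and 20.7 FPKM in WT under CT and at 8.00, 8.03 and 8.40 under WS (−1.68 ± 0.20, adjusted p = 0.00134). In *zmccd8* it was at 27.4, 33.6 and 27.3 against 7.48, 5.77 and 7.34 (−1.95 ± 0.14, adjusted p = 0.000154). Another feature overlaps this gene on the same strand, so reads could be shared between them.

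The other CBLs called in WT, named after their values were seen, were Zm00001eb203330 (rice CBL7, −1.31), Zm00001eb051150 (rice CBL3, −1.24), Zm00001eb161280 (rice CBL5, 1.42) and Zm00001eb023890 (rice CBL1, 1.05). The first of these was also called in *zmccd8*, at −1.09.

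CIPKs held both the steepest fall and the steepest rise among the members called in WT. In WT 7 of 37 were called higher and 4 lower, and in *zmccd8* 8 and 6. Zm00001eb016180 (rice CIPK10), the most abundant member, went from 293, 360 and 302 FPKM in WT under CT to 30.1, 31.9 and 26.5 under WS, 10.8-fold lower (−3.39 ± 0.14, adjusted p = 2.57e-05). In *zmccd8* it went from 243, 448 and 255 to 27.0, 27.7 and 25.3, 11.8-fold lower (−3.46 ± 0.23, adjusted p = 0.000112). Under 0N this gene was not called in either genotype (−0.31 in WT and 0.69 in *zmccd8*).

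Zm00001eb041140 (rice CIPK6, chromosome 1) rose from 10.5, 5.16 and 6.16 FPKM to 58.0, 85.7 and 50.1 in WT, 8.89-fold (3.0 ± 0.29, adjusted p = 0.00065). In *zmccd8* it rose from 14.5, 5.41 and 14.4 to 40.3, 59.6 and 48.9, 4.34-fold (2.12 ± 0.35, adjusted p = 0.00405). This is the gene whose level in *zmccd8* was lower under 0N than under CT.

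Zm00001eb353170 (rice CIPK19) rose from a mean of 0.328 FPKM to 4.24 in WT (1.92 ± 0.26, adjusted p = 0.00241), with 1.61 in the mutant. Zm00001eb099440 (rice CIPK16) rose from 0.171 to 2.76 (1.68 ± 0.15, adjusted p = 0.000511), with 1.34 in the mutant. Zm00001eb001940 (rice CIPK9) rose from 9.85 to 31.3 FPKM in WT (1.57 ± 0.20, adjusted p = 0.00168), while *zmccd8* went from 8.72 to 41.3 (2.12 ± 0.14, adjusted p = 0.000121), and 2 other features overlap it on the same strand. The first 2 of these 3 genes were low in absolute terms even where they rose.

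Zm00001eb300010 (rice CIPK23, whose Arabidopsis namesake phosphorylates potassium and nitrate transporters) was chosen after its values were seen. It was at 59.0, 70.4 and 28.3 FPKM in WT under CT, 82.2, 75.6 and 91.8 under 0N and 134, 179 and 126 under WS. In *zmccd8* the values were 67.2, 66.9 and 53.9, then 58.1, 68.2 and 58.3, then 167, 156 and 134. The WS libraries were above all others, with log2 differences from CT of 1.54 ± 0.34 in WT (adjusted p = 0.0138) against 1.27 ± 0.14 for the mutant (adjusted p = 0.000705), and the 0N differences of 0.75 and −0.02 were not called. Another feature overlaps this gene too on the same strand.

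The CIPK genes named under 0N were also measured under WS. Zm00001eb163480 (rice CIPK32) fell to 2.96 to 3.75 FPKM in WT and 3.29 to 3.68 in *zmccd8* (−2.02 and −1.81, adjusted p = 0.00113 and 0.000103). Zm00001eb195230 (rice CIPK14) spread from 10.7 to 41.8 FPKM in WT under WS and was not called (−1.22 ± 0.47, adjusted p = 0.0805), and in *zmccd8* it fell by 1.81. That *zmccd8* call was lost without WS library 1 or 2 or CT library 1 (adjusted p = 0.0748, 0.0547 and 0.0593). Zm00001eb386410 (rice CIPK24) was close to 0 under WS, at 0.0841 to 0.29 FPKM in WT and 0.259 to 0.295 in *zmccd8*, against 2.85 to 4.56 over the 6 CT libraries (−1.98 and −1.81, adjusted p = 0.000487 and 0.000465).

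Of the 40 filtered CPKs, 3 were called higher and 5 lower under WS in WT (20%), and 3 and 4 in *zmccd8* (17.5%). These shares are near those of all filtered genes called in either direction, 17.77% in WT and 16.58% in *zmccd8*. Zm00001eb428080 (rice CPK13, chromosome 10) fell from 54.4, 80.3 and 70.9 FPKM to 19.1, 26.1 and 17.9 in WT (−1.66 ± 0.20, adjusted p = 0.00146). In *zmccd8* it fell from 73.3, 77.8 and 57 to 15.7, 17.1 and 19.5 (−1.93 ± 0.15, adjusted p = 0.000184). Zm00001eb217170 (rice CPK9), which rose in WT under 0N, fell under WS to 1.59 FPKM in WT and 1.80 in *zmccd8* (−1.67 and −1.55, adjusted p = 0.00156 and 0.00129). CT and WS libraries did not overlap in either gene, which the naming rule required of Zm00001eb428080 in *zmccd8*.

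**Figure D5:**
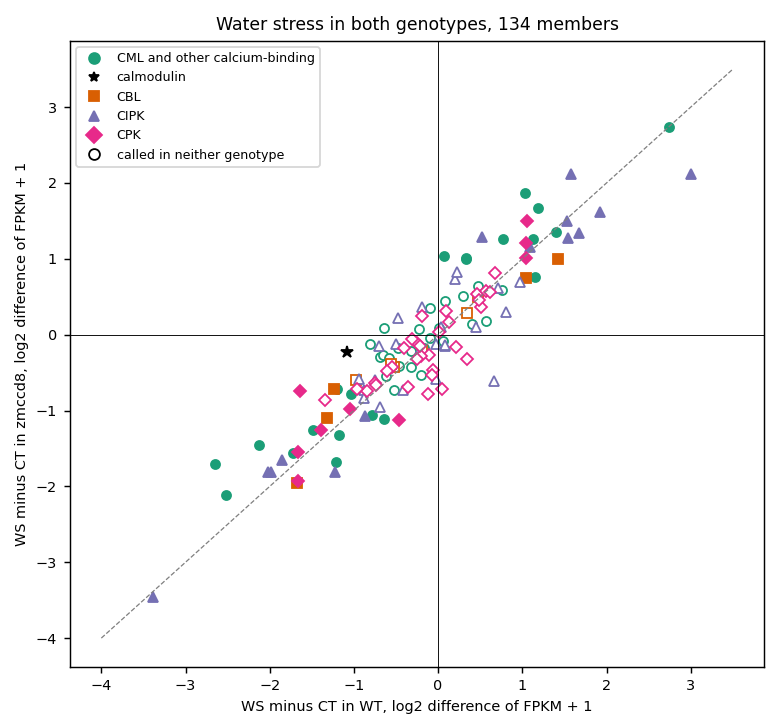
Log2 difference between WS and CT (log2 of FPKM + 1) in WT on the x axis and in *zmccd8* on the y axis for the 134 filtered members, coloured by class. Filled symbols are called in at least 1 genotype, and the dashed line marks equal differences. All 50 filled points have the same sign in both genotypes. They run from the CIPK10 gene at −3.39 to the CIPK6 gene at 3.0 on the x axis, and from the CIPK10 gene at −3.46 to the CML16 gene at 2.73 on the y axis.

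Genes that the file matches to the same protein did not always move together. There were 37 such groups with at least 2 filtered genes, 85 genes in all. Under WS in WT 17 groups had no called gene, 16 had 1 and 4 had 2. In 3 of those 4 both genes fell: the CML19 genes Zm00001eb362720 and Zm00001eb422850 (−2.65 and −1.72), the CML27 genes Zm00001eb395260 and Zm00001eb015800 (−1.49 and −1.18) and the neighbouring CML31 genes Zm00001eb140600 and Zm00001eb140610 (−2.13 and −1.20). In the remaining 1 the directions were opposite. Of the 2 CPK10 genes, named after their values were seen, Zm00001eb213280 rose by 1.04 ± 0.14 in WT (adjusted p = 0.00198), from 8.61 to 18.9 FPKM, and Zm00001eb060110 fell by 1.04 ± 0.14 (adjusted p = 0.0022), from 17.2 to 7.81.

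In *zmccd8* the CPK10 genes differed by 1.01, called, and −0.98, which is just below the fold threshold. Of the 3 CIPK32 genes only Zm00001eb163480 was called. Its 2 counterparts Zm00001eb101290 and Zm00001eb196030 had WS differences of 0.22 and −0.02 in WT, and the latter averaged 54.2 FPKM over the 18 libraries. Another feature on the same strand overlaps 9 of the 56 called members. Whether reads were split between such genes was not tested.

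No member was called by limma in either interaction, that is, in how genotypes differed in their response to 0N or WS. At an unadjusted p under 0.05 there were 29 members (21.64%) for 0N, against 17.5% of all filtered genes, and 14 (10.45%) for WS, against 7.94%. Of all filtered genes 0% were called in the 0N interaction and 0.0218% in that of WS. Limma voom on the rebuilt reads called 0 members in both. For 0N, 2 members were called without *zmccd8* 0N library 3, a fit that called 134 of all 27530 filtered genes. The member medians of the interaction were −0.13 for 0N and 0.07 for WS, against 0.00 and −0.02 over all filtered genes.

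Other genes of calcium signalling were counted for context: 203 annotated genes of channels, pumps, exchangers, calmodulins, calmodulin-binding factors, annexins, respiratory burst oxidases and related types, of which 128 passed the filter. Under WS 13 were called higher and 7 lower in WT (15.62%), and 6 and 6 in *zmccd8* (9.38%), beside 17.77% and 16.58% of all filtered genes. The OSCA-type channels, which open on osmotic stress in Arabidopsis, had 5 of 10 higher and 0 lower in WT, and 2 and 0 in *zmccd8*. The calcium pumps (Ca2+-ATPases) had 3 higher and 1 lower of 18 in WT, while in *zmccd8* 1 was higher and 1 lower. Under 0N 3 of the 128 rose and 3 fell in WT (4.69%), and 3 and 7 in *zmccd8* (7.81%), beside 4.76% and 7.37% of all filtered genes. Between genotypes 1 was lower under CT (0.78%), 1 higher and 1 lower under 0N (1.56%), and 2 lower under WS (1.56%). Of all filtered genes 0.84%, 1.57% and 0.9% were called between genotypes, in the same order.

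The root origin of the samples was checked on 57 genes with the words Casparian strip membrane protein or high-affinity nitrate transporter 2 in their annotation, 12 of them at 0 in all libraries. Their summed level was 622 to 893 FPKM in WT and 710 to 865 in *zmccd8* under CT, 696 to 753 and 507 to 618 under 0N, and 291 to 335 and 281 to 333 under WS. Many of the 57 are CASP-like proteins, and 1 of these, Zm00001eb305660, makes up much of the sums under CT. It was at 293, 307 and 90.2 FPKM in WT under CT and at 19.9, 32.0 and 27.1 under WS. In *zmccd8* it was at 248, 329 and 226 under CT and at 18.5, 17.5 and 24.6 under WS. Under WS 14 of the 39 filtered genes of this list were called lower in each genotype, and 3 were higher in WT and 2 in *zmccd8*. The 7 Casparian strip membrane proteins themselves, which mark the endodermis, summed to 107 to 190 FPKM in WT under CT and 34.6 to 54.8 under WS, and 6 of them were lower. Under 0N the same 7 summed to 72.8 to 102 in WT and 35.5 to 87.8 in *zmccd8*. A leaf list of 17 genes (the small subunit of Rubisco, phosphoenolpyruvate carboxylases and pyruvate, phosphate dikinases), some with forms active in roots, summed to 260 to 342 under CT and 373 to 426 under WS in WT and to 302 to 400 and 424 to 483 in *zmccd8*, with 3 genes at 0 throughout. The 2 Rubisco small subunit genes summed to 8.00 FPKM or less in every library. The part of a changed root makeup in the WS and 0N results of the members was not tested.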

How the data were processed

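Root mRNA from 18 libraries, 3 in each of 6 groups, was analysed from 1 table of FPKM. The authors filtered the reads with fastp, aligned them to the B73 reference genome with HISAT2 2.0.5, assembled further transcripts with StringTie, counted reads with featureCounts and deposited FPKM values for annotated and assembled features. The libraries were strand-specific. Genes are given in the coordinates of the file. FPKM times gene length gave whole reads for 100% of values within 0.1, and these rebuilt reads served for depth (30104083 to 43429912 per library, counting error only) and for 1 alternative.

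Genes that reached 1 FPKM in 3 or more libraries were compared as log2(FPKM + 1) in limma 3.58.1 (R 4.3.3), two-sided, with variances that follow the mean and Benjamini-Hochberg adjustment over 27530 genes. Each comparison of 3 with 3 libraries was fitted on its own 6 libraries, and each interaction on 12. Tables were made in Python 3.11.15 (pandas 2.3.3, numpy 2.4.6, scipy 1.17.1), with matplotlib 3.10.9 for plots. Classes were read from the descriptions. Replicate numbers could pair libraries: correlations of same-numbered residuals were above 0.1 in all 3 pairs only for WS against CT in *zmccd8* (0.135, 0.224 and 0.253), where a block for the replicate called 41 members, as without it. Replicates are pools of plants, and p-values measure the spread between such pools.

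Genes named are the 3 identifiers of the rule, the 4 largest rises and 4 largest falls among called members whose groups do not overlap in each treatment comparison, up to 3 each way between genotypes, and the most abundant member of each class. Members and lists were chosen with earlier results of these data known. Alternatives were a pseudocount of 0.1, no filter, a fit of all 18 libraries, scaling by the median of ratios, no chromosome 3 genes, a replicate block, limma voom on rebuilt reads and leaving out each library in turn. Gene sequences and a GC correction were not used here.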

Additional observations from a re-analysis of the deposited data

How the results depend on the processing

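Counts of members called under WS moved by less than 1.5 times under every alternative, from 32 to 49 in WT and 33 to 49 in *zmccd8* (35 to 40 in *zmccd8* and 36 to 42 in WT on leaving out 1 library). Other counts were less stable. For *zmccd8* against WT under 0N (6 called), 1 member was called with no filter, 12 in a fit of all 18 libraries, 2 without chromosome 3 genes and 1 with a replicate block, and 1 to 11 on leaving out 1 library. Over all genes the calls there moved as well, from 433 to 215 with no filter and 1443 in the fit of all 18 libraries. They were 160 without chromosome 3 genes, 131 with the block and 171 to 984 on leaving out 1 library. Under CT (1 called) 0 were called without chromosome 3 genes, where the calmodulin is left out by construction, and 1 in each fit without 1 library. Under WS (1 called) 0 were called with no filter or without chromosome 3 genes, 2 with a replicate block and 2 with voom, and 0 to 1 on leaving out 1 library. For 0N against CT in WT (6 called) no filter gave 3, the replicate block 2 and voom 10, with 2 to 7 on leaving out 1 library, and in *zmccd8* (10 called) no filter gave 1, with 0 to 12 on leaving out 1 library. The interaction with 0N gave 0 to 2, and that with WS 0 in every fit. Over 56 log2 differences of named genes in 711 alternative fits, 601 kept the call, 110 lost it in the same direction and 0 reversed. Scaling by the median of ratios is among these fits, but its factor was 1.008 in every library, so the values were already even by that measure. That setting could hardly change a call, and so it does not test the normalization. Unless stated, the cause was not tested. Correlations of same-numbered libraries passed 0.1 in all 3 pairs only for WS against CT in *zmccd8*, and the block there left the count at 41. For 0N against CT in *zmccd8* they were 0.143, 0.39 and 0.096. With the block all 10 members called there kept their calls, and the calls over all filtered genes went from 2029 to 2722. With 3 libraries a group and FPKM in place of counts, small differences and members near 0 FPKM are beyond the precision of these data.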
